A study of Mus musculus with 18 samples.

Results

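The genes described here are 10 markers of lymphocytes, read in whole-liver RNA from mice with and without apolipoprotein E that were fed ethanol or a control diet. They are a list of gene symbols, taken up with earlier results of these data known, and all 10 were found among the 15052 genes of the deposited table. *Cd3e*, *Cd3g* and *Cd8a* stand for T cells, *Nkg7* and *Gzma* for natural killer (NK) and other cytotoxic cells, *Cd79a*, *Cd79b*, *Ms4a1* and *Ighm* for B cells, and *Jchain* for plasma cells. There were 18 female mice (by the labels) of 10 to 12 weeks in 4 groups: 4 WT and 5 *Apoe* KO mice that were pair-fed, and 5 WT and 4 *Apoe* KO mice that were EtOH-fed, the last carrying the numbers 1, 2, 4 and 5. WT mice were C57BL/6J, and the *Apoe* KO line carries a germline knockout in all cells of the body. All mice took the Lieber-DeCarli liquid diet for 5 days of adaptation, then for 10 days either the same diet with 5% (v/v) ethanol or an isocaloric control diet. On day 11 they received ethanol (5 g/kg) or dextrin-maltose (9 g/kg) by gavage, and livers were taken 9 h later.

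Lymphocytes are a minority in the liver, where T cells, NK cells and some B cells lie in the sinusoids and portal tracts among hepatocytes and Kupffer cells. CD3 chains carry the signal of the T cell receptor, and CD79A and CD79B do the same for the B cell receptor, whose first antibody class is IgM. When a B cell matures into an antibody-secreting plasma cell, it makes large amounts of immunoglobulin and of the joining chain, which links IgM and IgA into polymers, while surface genes such as *Ms4a1* (CD20) are shut down.

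In EtOH-fed mice, *Ighm* and *Jchain* were higher in *Apoe* KO than in WT livers, by 2.65-fold and 3.50-fold, and none of the other 8 genes passed the test. The same 2 genes were higher in EtOH-fed than in pair-fed *Apoe* KO livers. In WT livers, *Ighm* was lower after EtOH feeding, a call that several single mice decided. The response of *Ighm* and *Jchain* to ethanol differed between the genotypes, and that of the other 8 genes did not pass the test, although *Cd79a* passed under some alternative fits. Values are read counts brought by scaling to almost equal sums in all mice, and tests were limma fits on log2(value + 1) over all 15052 genes, with a call at a Benjamini-Hochberg adjusted p under 0.05.

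The labels hold for genotype: *Apoe* ranged from 8586 to 108651 in the 9 *Apoe* KO mice and from 611230 to 798431 in the 9 WT mice. EtOH-fed *Apoe* KO mouse 1 went against its sex label, with *Xist* at 826 (15227 to 30379 in the other 17 mice) and the Y-linked *Ddx3y* at 1077 (2 to 118), so the calls of members and of the lymphocyte and leukocyte lists that differ without it are given beside the results. Reads on genes, estimated from the spacing of low values, ranged from 5.60 M to 52.2 M in the 16 mice where the spacing could be resolved. Of the 4 EtOH-fed *Apoe* KO mice, mouse 1 had 45.8 M and the other 3 had 7.88 M to 13.5 M, while the 3 resolved EtOH-fed WT mice had 24.6 M to 52.2 M. Fits without mouse 1 thus leave only the 3 shallower libraries of its group. Its sex genes and its depth cannot be told apart in such fits. No member was at 0 in any mouse, but in 34 of 128 values of the 8 genes other than *Ighm* and *Jchain* the estimate was 10 reads or fewer. The lowest was 2 reads. In bulk tissue, fewer cells of a type and less RNA per cell cannot be told apart.

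*Ighm* (ENSMUSG00000076617), the constant region of the IgM heavy chain, lies in the immunoglobulin heavy chain locus at chr12:113418558-113422730 on the minus strand (GRCm38). Its values were 478, 493, 292 and 780 in pair-fed WT mice, and 315, 120, 259, 290 and 294 in pair-fed *Apoe* KO mice. They were 137, 224, 277, 347 and 276 in EtOH-fed WT mice, and 496, 473, 1032 and 700 in EtOH-fed *Apoe* KO mice. All 4 EtOH-fed *Apoe* KO mice thus lay above all 5 EtOH-fed WT mice and above all 5 pair-fed *Apoe* KO mice, while they overlapped with pair-fed WT mice. The log2 difference between EtOH-fed genotypes was 1.41 (SE 0.27, 95% interval 0.82 to 2.0, limma adjusted p = 0.0115).

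*Jchain* (ENSMUSG00000067149), the joining chain, lies at chr5:88519809-88527891 on the minus strand. It measured 161, 213, 91 and 417 in pair-fed WT mice, and 87, 54, 138, 115 and 129 in pair-fed *Apoe* KO mice. After EtOH feeding it was at 76, 59, 117, 174 and 132 in WT mice, and at 177, 391, 753 and 346 in *Apoe* KO mice. The groups of EtOH-fed mice were apart, but only by 3 units between *Apoe* KO mouse 1 and WT mouse 4. The log2 difference was 1.81 (SE 0.38, 95% interval 0.99 to 2.63, limma adjusted p = 0.0169). Without *Apoe* KO mouse 1 it was 2.16 (adjusted p = 0.0104), and *Ighm* then differed by 1.53 (adjusted p = 0.0177). The call on *Jchain* was lost without *Apoe* KO mouse 4 (1.46, adjusted p = 0.0537) and without WT mouse 1 (1.70, adjusted p = 0.0505), whereas that on *Ighm* was kept whichever of the 9 mice was left out.

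The stretch upstream of the start of *Jchain*, which rose in EtOH-fed *Apoe* KO mice, is shown beside that of *Cd79a*, a B cell receptor gene that did not pass the test. Both are from RefSeq (GRCm38.p6), 5′ to 3′ on the gene's own strand, at chr5:88527898-88528147 (minus) and chr7:24897247-24897380 (plus). That of *Cd79a* ends where its longest annotated transcript begins. Capitals mark E boxes (CANNTG, the same on both strands), letters that can be bound by the helix-loop-helix factors of lymphocytes.
Jchain: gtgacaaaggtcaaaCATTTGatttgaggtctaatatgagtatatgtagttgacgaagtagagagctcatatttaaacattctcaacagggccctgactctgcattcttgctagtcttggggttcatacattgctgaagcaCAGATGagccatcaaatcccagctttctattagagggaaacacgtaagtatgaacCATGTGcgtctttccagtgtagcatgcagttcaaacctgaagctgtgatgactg
Cd79a: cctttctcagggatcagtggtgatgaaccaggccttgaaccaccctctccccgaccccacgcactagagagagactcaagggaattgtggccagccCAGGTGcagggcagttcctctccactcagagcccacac
The 250 bases upstream of the RefSeq start held an E box in all 7 members with an entry (*Cd3e*, *Cd3g*, *Cd8a*, *Nkg7*, *Gzma*, *Cd79a* and *Jchain*), against 66.2% of 32851 promoters. *Jchain* had 3 and *Cd79a* had 2 within those 250 bases. The octamer of immunoglobulin promoters (ATGCAAAT or ATTTGCAT) was in none of the 7 and in 1.60% of all promoters.

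**Figure D1:**
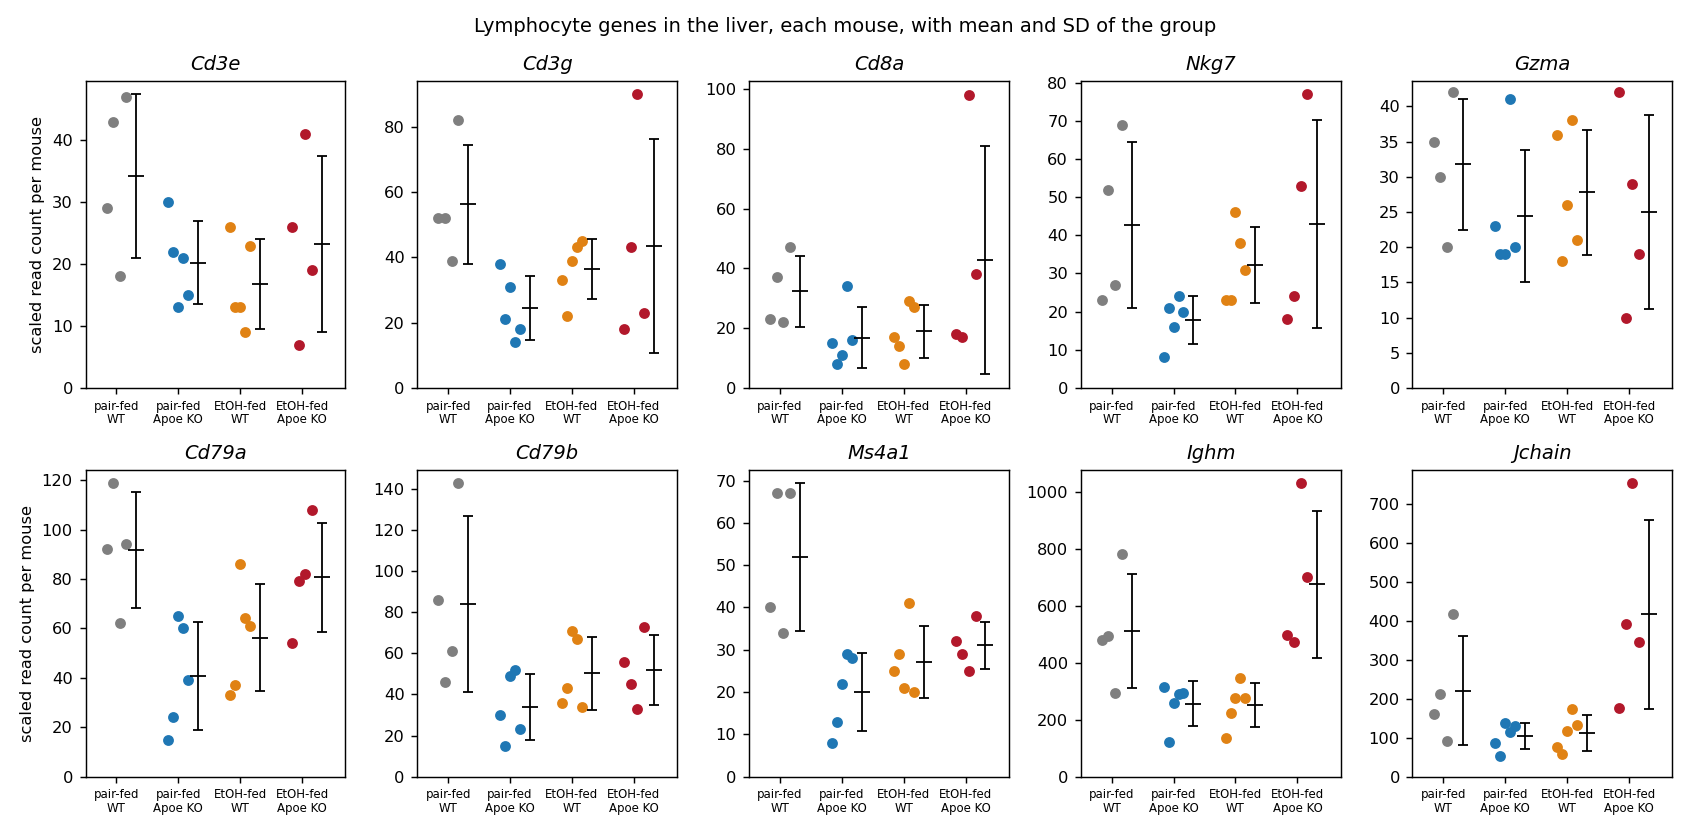
Scaled read count (vertical axes, from 0) of each of the 10 genes in each mouse (points) of the 4 groups, with the group mean and SD (black bars). In EtOH-fed *Apoe* KO mice *Ighm* sits between 473 and 1032 and *Jchain* between 177 and 753, above all EtOH-fed WT mice, while these 2 groups overlap in the other 8 genes.

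The remaining B cell genes did not separate the EtOH-fed genotypes. *Cd79a* (chr7:24897381-24902197, plus strand) encodes the alpha chain of the B cell receptor's signaling pair. It was at 92, 119, 62 and 94 in pair-fed WT mice, 15, 24, 65, 60 and 39 in pair-fed *Apoe* KO mice, 33, 37, 86, 64 and 61 in EtOH-fed WT mice, and 54, 79, 82 and 108 in EtOH-fed *Apoe* KO mice. The log2 difference between EtOH-fed genotypes was 0.56 (95% interval -0.14 to 1.26, adjusted p = 0.392). The gene is 5.20 Mb from *Apoe* on the same chromosome.

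*Cd79b*, the beta chain (chr11:106311341-106314762, minus strand), gave means of 51.8 ± 17.0 (SD, n = 4) with *Apoe* deleted and 50.2 ± 17.5 (SD, n = 5) in WT, both fed EtOH. *Ms4a1* (CD20, chr19:11249675-11266241, minus strand) gave 31 ± 5.48 (SD, n = 4) and 27.2 ± 8.5 (SD, n = 5). Their log2 differences did not pass the test, at 0.05 (95% interval -0.67 to 0.77) and 0.21 (-0.53 to 0.95). The EtOH-fed genotypes overlapped in all 3 surface genes.

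The 2 genes can be set against the surface genes within each mouse. The sum of *Ighm* and *Jchain* was 2.21 to 3.55 times that of *Cd79a*, *Cd79b* and *Ms4a1* in the 5 EtOH-fed WT mice and 4.74, 5.65, 12.8 and 4.78 times in EtOH-fed *Apoe* KO mice. In pair-fed mice the ratio was 2.44 to 3.94 in WT and 2.87 to 7.58 in *Apoe* KO, where mouse 1 was the highest. This ratio does not depend on how the libraries were scaled, but its extremes rest on few reads. Behind *Cd79a*, *Cd79b* and *Ms4a1* stood about 4, 8 and 2 reads in pair-fed *Apoe* KO mouse 1. In EtOH-fed *Apoe* KO mouse 4, with the ratio of 12.8, they had about 20, 8 and 6. *Jchain* per *Ighm* was 0.357 to 0.827 in EtOH-fed *Apoe* KO mice and 0.263 to 0.555 in EtOH-fed WT mice, with overlap.

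**Figure D2:**
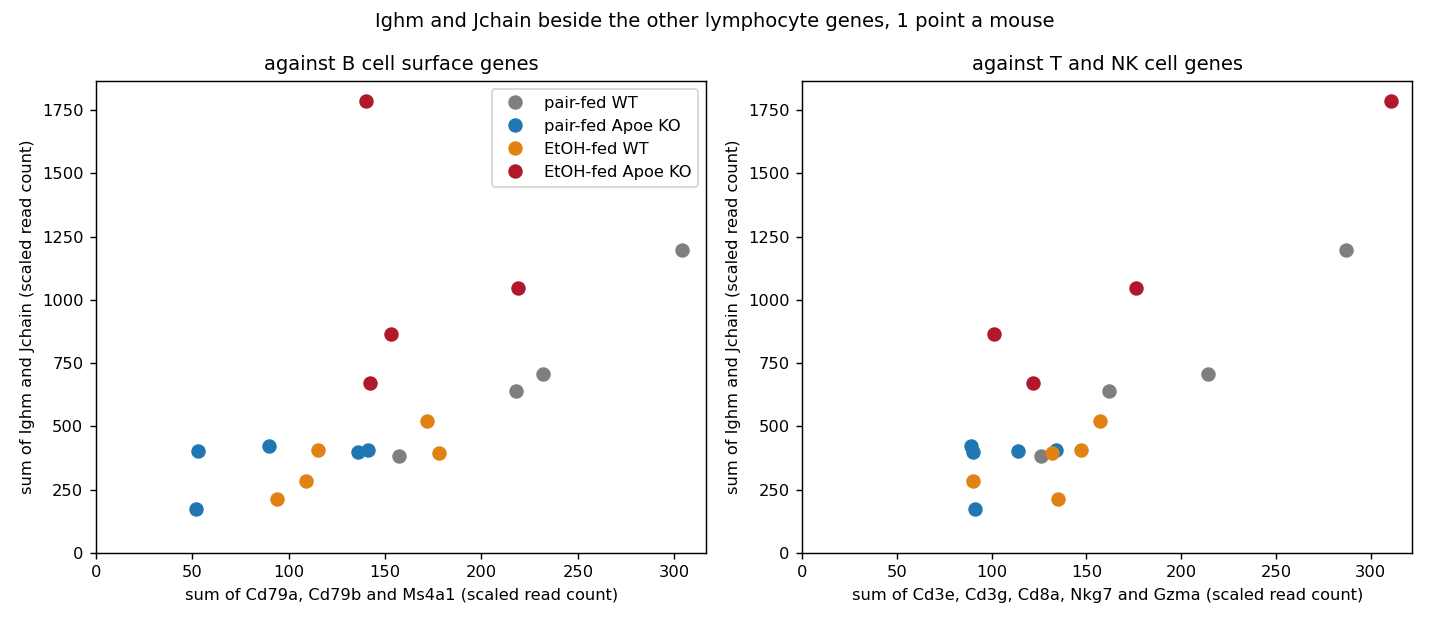
Sum of *Ighm* and *Jchain* (vertical axes, scaled read count) in each mouse against the sum of *Cd79a*, *Cd79b* and *Ms4a1* (left) and the sum of the 5 T and NK cell genes (right); colors give the groups. On the left, the 4 EtOH-fed *Apoe* KO mice lie at 673 to 1785 for surface sums of 140 to 219, and the 5 EtOH-fed WT mice at 213 to 521 for surface sums of 94 to 178.

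T cell genes were low and varied widely between mice. *Cd8a*, the co-receptor of cytotoxic T cells (chr6:71373427-71379173, plus strand), was at 23, 37, 22 and 47 in pair-fed WT mice, 15, 8, 11, 34 and 16 in pair-fed *Apoe* KO mice, 17, 14, 8, 29 and 27 in EtOH-fed WT mice, and 18, 17, 98 and 38 in EtOH-fed *Apoe* KO mice. The 98 came from *Apoe* KO mouse 4, where 1 read stood for 4.09 units and the value for about 24 reads. The log2 difference between EtOH-fed genotypes was 0.89 (95% interval -0.30 to 2.08, adjusted p = 0.426).

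*Cd3e* (chr9:44998740-45009627) and *Cd3g* (chr9:44969572-44980431) encode CD3 chains and lie close together on the minus strand, with *Cd3d* between them on the plus strand. *Cd3e* averaged 34.2 ± 13.3 (SD, n = 4), 20.2 ± 6.69 (SD, n = 5), 16.8 ± 7.29 (SD, n = 5) and 23.2 ± 14.2 (SD, n = 4) in WT and *Apoe* KO mice without ethanol and then in WT and *Apoe* KO mice with it. *Cd3g* averaged 56.2 ± 18.2, 24.4 ± 9.86, 36.4 ± 9.26 and 43.5 ± 32.8 in the same order. Between EtOH-fed genotypes their log2 differences were 0.31 (95% interval -0.84 to 1.46) and 0.02 (-0.94 to 0.98). Both intervals reach far on either side of 0.

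*Nkg7*, a granule protein of NK and cytotoxic T cells (chr7:43437073-43438249, plus strand), was at 23, 52, 27 and 69 in pair-fed WT mice, 8, 21, 16, 24 and 20 in pair-fed *Apoe* KO mice, 23, 23, 46, 38 and 31 in EtOH-fed WT mice, and 18, 24, 53 and 77 in EtOH-fed *Apoe* KO mice. It is on the chromosome of *Apoe*, 23.7 Mb away. *Gzma*, the granzyme A protease of the same granules (chr13:113093825-113100981, minus strand), had the flattest profile, with means of 31.8 ± 9.25 (SD, n = 4), 24.4 ± 9.42 (SD, n = 5), 27.8 ± 8.90 (SD, n = 5) and 25.0 ± 13.7 (SD, n = 4). Between EtOH-fed genotypes the log2 difference was 0.23 (95% interval -0.71 to 1.18) for *Nkg7* and -0.26 (-1.22 to 0.70) for *Gzma*. Behind the *Gzma* values of EtOH-fed *Apoe* KO mice 2, 4 and 5 there were only about 4, 7 and 5 reads.

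**Figure D3:**
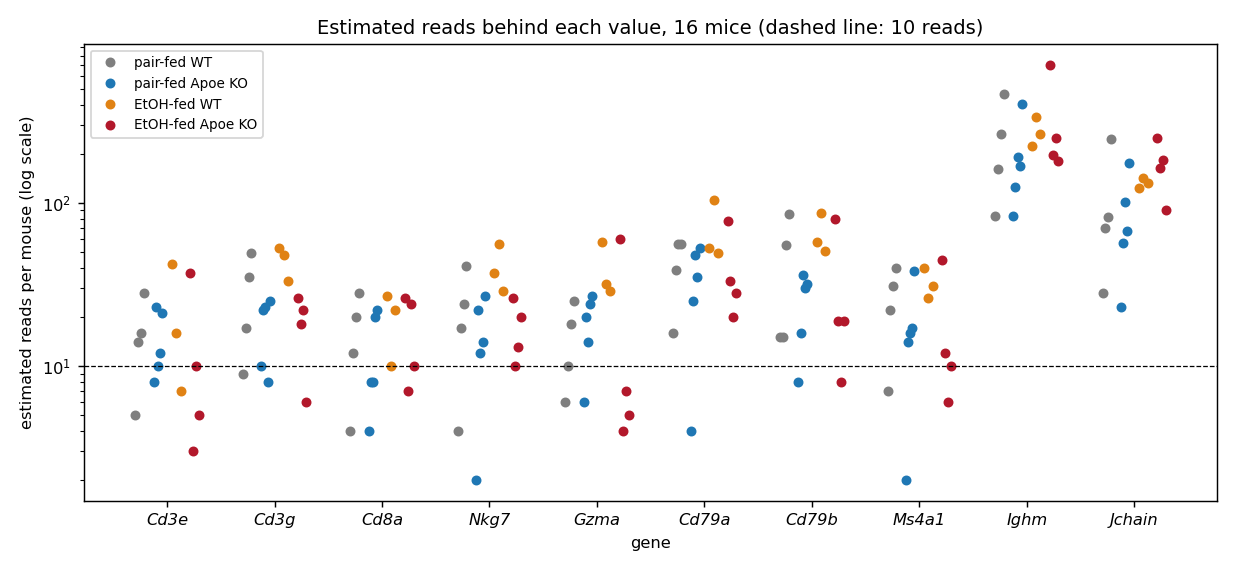
Estimated reads (vertical axis, log scale) behind each value of the 10 genes in the 16 mice whose read spacing was resolved; colors give the groups and the dashed line marks 10 reads. *Ighm* rests on 83 to 704 reads a mouse and *Jchain* on 23 to 251, whereas the other 8 genes fall to between 2 and 8 reads in their lowest mouse.

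In numbers, 2 of 10 members were called higher in *Apoe* KO than in WT mice fed EtOH and none lower, where 4.25% of all genes were called higher and 0.445% lower. The same 2 genes were the members whose groups did not overlap, as did 7.12% of all genes in that direction. The median log2 difference of the 10 members was 0.27, beside 0.107 over all genes. With median-of-ratios size factors the median over all genes moved to -0.020 and the calls from 639 higher and 67 lower to 380 and 126, while *Ighm* (1.28, adjusted p = 0.0125) and *Jchain* (1.68, adjusted p = 0.0217) stayed called. *Cd3g* and *Cd79b*, neither of them called, then changed sign to -0.11 and -0.07. A voom fit on estimated reads, which lets the precision of each value follow its depth, gave 1.34 (adjusted p = 0.0125) for *Ighm* and 1.53 (adjusted p = 0.0420) for *Jchain*. In that fit *Nkg7* (-0.09) and *Cd3g* (-0.27), neither called, changed sign, and no other member passed.

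Without ethanol, no member was called between the genotypes (limma; 0 of 10 also with voom), where 1.73% of all genes were. An unadjusted p under 0.05 was found for 7 of 10 members and for 19.9% of all genes. All 10 nevertheless had a lower mean in pair-fed *Apoe* KO mice, with log2 differences from -1.41 (*Ms4a1*) to -0.38 (*Gzma*) and a median of -1.08 beside -0.005 over all genes, of which 50.7% were below 0. *Ms4a1* was at 40, 67, 34 and 67 in WT and at 8, 13, 22, 29 and 28 in *Apoe* KO mice. *Cd3g* was at 52, 52, 39 and 82 in WT and at 38, 21, 31, 14 and 18 in *Apoe* KO mice. These were the 2 members whose groups were apart, as were 3.02% of all genes in that direction, with adjusted p = 0.112 for each. The smallest adjusted p was that of *Ighm* (-0.99, 0.0967), which was called without WT mouse 3 (-1.23, adjusted p = 0.0373). Pair-fed WT mouse 4 was the highest of its group, alone or tied, in 9 of 10 members. Without it the median of the members was -0.84.

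In WT mice, all 10 members had a lower log2 mean after EtOH feeding, as had 51.3% of all genes, and 1 of the 10 was called lower, where 6.52% of all genes were. That gene was *Ighm*, which averaged 511 ± 201 (SD, n = 4) in pair-fed and 252 ± 77.8 (SD, n = 5) in EtOH-fed mice (log2 difference -0.99, SE 0.28, adjusted p = 0.0359). Its groups overlapped, since pair-fed mouse 3 (292) was below EtOH-fed mouse 4 (347). The call was lost when any of pair-fed mice 1, 2 and 4 or EtOH-fed mice 1 and 2 was left out (adjusted p from 0.0665 to 0.117) and with voom (0.0532). The median of the members was -0.77 beside -0.011 over all genes. *Cd3e* (-0.99, adjusted p = 0.158) and *Ms4a1* (-0.90, adjusted p = 0.106) came closest among the others in size.

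In *Apoe* KO mice, EtOH feeding went with higher *Jchain* (log2 difference 1.87, SE 0.37, adjusted p = 0.00273) and *Ighm* (1.40, SE 0.29, adjusted p = 0.00375). *Jchain* averaged 105 ± 34.2 (SD, n = 5) in pair-fed and 417 ± 242 (SD, n = 4) in EtOH-fed mice, and *Ighm* 256 ± 78.4 (SD, n = 5) and 675 ± 259 (SD, n = 4). These 2 of 10 members stand in a comparison where 16.3% of all genes were called higher, so the count itself is close to that of all genes. They were also the 2 members whose groups were apart, as were 14.0% of all genes in that direction. Both calls were kept whichever mouse was left out, and without EtOH-fed mouse 1 they were 2.22 and 1.52. *Cd79a* was next (1.12, 95% interval 0.22 to 2.03, adjusted p = 0.0708). It was called with all 4 groups in the fit (adjusted p = 0.0385), blocked by mouse number (1.34, adjusted p = 0.0313) and without pair-fed mouse 3 (adjusted p = 0.0473), and not with voom (0.85, adjusted p = 0.109). *Cd8a* and *Nkg7* had similar differences with wider spread (1.09 and 1.08, adjusted p = 0.196 and 0.141). Of the other 5, *Cd3e* (0.02) and *Gzma* (-0.07) were nearest to 0.

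The interaction of diet and genotype, that is, the EtOH effect in *Apoe* KO mice minus that in WT mice on the log2 scale, used all 18 mice. It was 2.40 for *Ighm* (SE 0.44, adjusted p = 0.00714) and 2.74 for *Jchain* (SE 0.59, adjusted p = 0.0156), so that 2 of 10 members were called, where 2.60% of all genes were called higher. All 10 estimates were above 0, as were 62.1% of those of all genes. Both stayed called in each of the 18 fits without 1 mouse, and *Ighm* also with voom, where *Jchain* was not called (2.34, adjusted p = 0.0626). Without EtOH-fed *Apoe* KO mouse 1 the estimates were 2.52 (adjusted p = 0.00612) for *Ighm* and 3.09 (adjusted p = 0.0062) for *Jchain*. *Cd79a* (1.87, adjusted p = 0.0714) passed with the block (2.52, adjusted p = 0.0277) and without pair-fed *Apoe* KO mouse 4 (2.06, adjusted p = 0.0464), and not with voom (1.55, adjusted p = 0.125). *Cd8a* (1.88, adjusted p = 0.194) and *Ms4a1* (1.63, adjusted p = 0.118) also had large estimates, which did not pass. *Gzma*, at 0.12 (95% interval -1.09 to 1.33), was nearest to 0. The 5 comparisons share groups, and their values are therefore given side by side and not as independent evidence of each other.

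**Figure D4:**
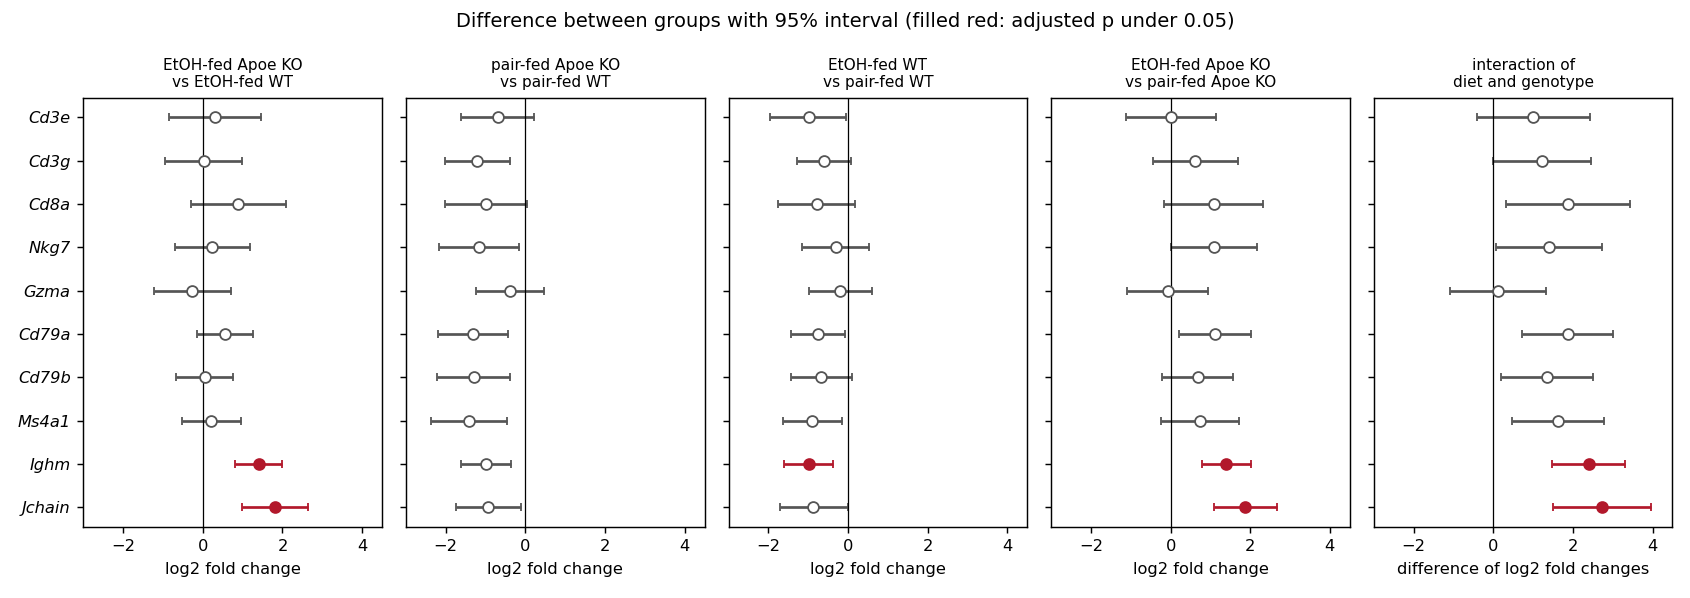
Log2 fold change of each gene (horizontal axes) with its 95% interval in the 4 comparisons of groups and in the interaction of diet and genotype; filled red points passed the adjusted p. *Ighm* and *Jchain* passed in the first, the fourth and the fifth panel, and *Ighm* at -0.99 in the third.

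By mean, *Ighm*, *Jchain*, *Cd8a* and *Nkg7* were highest in EtOH-fed *Apoe* KO mice, followed by pair-fed WT mice, whose ranges overlapped for each of the 4 genes. For *Nkg7* these means were 43.0 and 42.8, and for *Cd8a* 42.8 and 32.2. *Cd79a*, *Cd79b*, *Ms4a1*, *Cd3e*, *Cd3g* and *Gzma* were highest in pair-fed WT mice. Per kb of exon, the mean level in pair-fed WT mice was 271 units for *Ighm*, 87.6 for *Jchain*, 63.0 for *Cd79a*, 58.7 for *Cd79b*, 46.8 for *Nkg7*, 31.6 for *Gzma*, 17.2 for *Cd3g*, 8.87 for *Cd8a*, 8.40 for *Ms4a1* and 8.39 for *Cd3e*. In EtOH-fed *Apoe* KO mice *Ighm* reached 358 and *Jchain* 166 units per kb.

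Some other genes of the antibody-secreting state were also higher. Of 12 further plasma cell genes, 9 were in the table by symbol, with a median log2 difference of 1.82 between EtOH-fed genotypes and 8 of the 9 above 0. The heavy chain genes *Igha*, *Ighg2b*, *Ighg2c* and *Ighg3* and the gene *Derl3* were at 1.82 or more. The rest of the 9 were below 1.82 and were called in none of the 5 comparisons (limma). Of these 9, 2 were called higher in *Apoe* KO than in WT mice fed EtOH and none lower, where 4.25% of all genes were called higher. They were *Igha*, the IgA heavy chain (147 ± 46.5, SD, n = 5, in WT and 593 ± 323, SD, n = 4, in *Apoe* KO; log2 difference 1.89, adjusted p = 0.00906), and *Derl3*, which clears misfolded protein from the endoplasmic reticulum (98.4 ± 55.2 and 1073 ± 484; 3.49, adjusted p = 0.000511). *Derl3* is not particular to plasma cells, and it was also higher in *Apoe* KO mice without ethanol (1.94, adjusted p = 0.0208) and in EtOH-fed WT mice over pair-fed WT mice (1.38, adjusted p = 0.0282). *Ighg2c* and *Ighg2b*, IgG heavy chains, were not called between EtOH-fed genotypes (2.58 and 1.82, adjusted p = 0.0819 and 0.179) and were called higher in EtOH-fed than in pair-fed *Apoe* KO mice (3.07 and 2.45, adjusted p = 0.00262 and 0.00749). *Ighg2c* was also lower in pair-fed *Apoe* KO than in pair-fed WT mice (-2.08, adjusted p = 0.0440). When EtOH-fed *Apoe* KO mouse 1 was left out, 4 of the 9 were called between EtOH-fed genotypes, with *Ighg2c* (3.21, adjusted p = 0.0402) and *Ighg3* (2.74, adjusted p = 0.046) added. *Ighg3* was then also called between diets in *Apoe* KO mice (2.21, adjusted p = 0.0159), and *Ighg2b* in the interaction (3.99, adjusted p = 0.0206).

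By annotation, 19 genes of the table are immunoglobulin genes (GENCODE M21 biotypes), a list taken after the values were seen. In EtOH-fed *Apoe* KO mice against EtOH-fed WT mice all 19 had a higher mean log2 value, with a median difference of 1.83. Of them, 5 were called higher, where 4.25% of all genes were: *Ighm*, *Igha*, *Ighg1* and the variable segments *Igkv1-117* and *Igkv10-96*. The smallest difference was that of *Ighd*, the IgD heavy chain of naive B cells, at 0.14 (adjusted p = 0.884), with the other 18 between 1.21 and 2.58. Against pair-fed *Apoe* KO mice 12 were called higher (16.3% of all genes were), and 8 in the interaction (2.60% of all genes were). Without EtOH-fed *Apoe* KO mouse 1 the counts were 11, 15 and 11. The summed value of the 19 genes was 2002 in that mouse and 5752, 11505 and 6251 in mice 2, 4 and 5. In EtOH-fed WT mice the sum ranged from 652 to 2526, and so included mouse 1. Segments and constant regions of this family are near-identical in places, so the split of reads among them is uncertain.

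**Figure D5:**
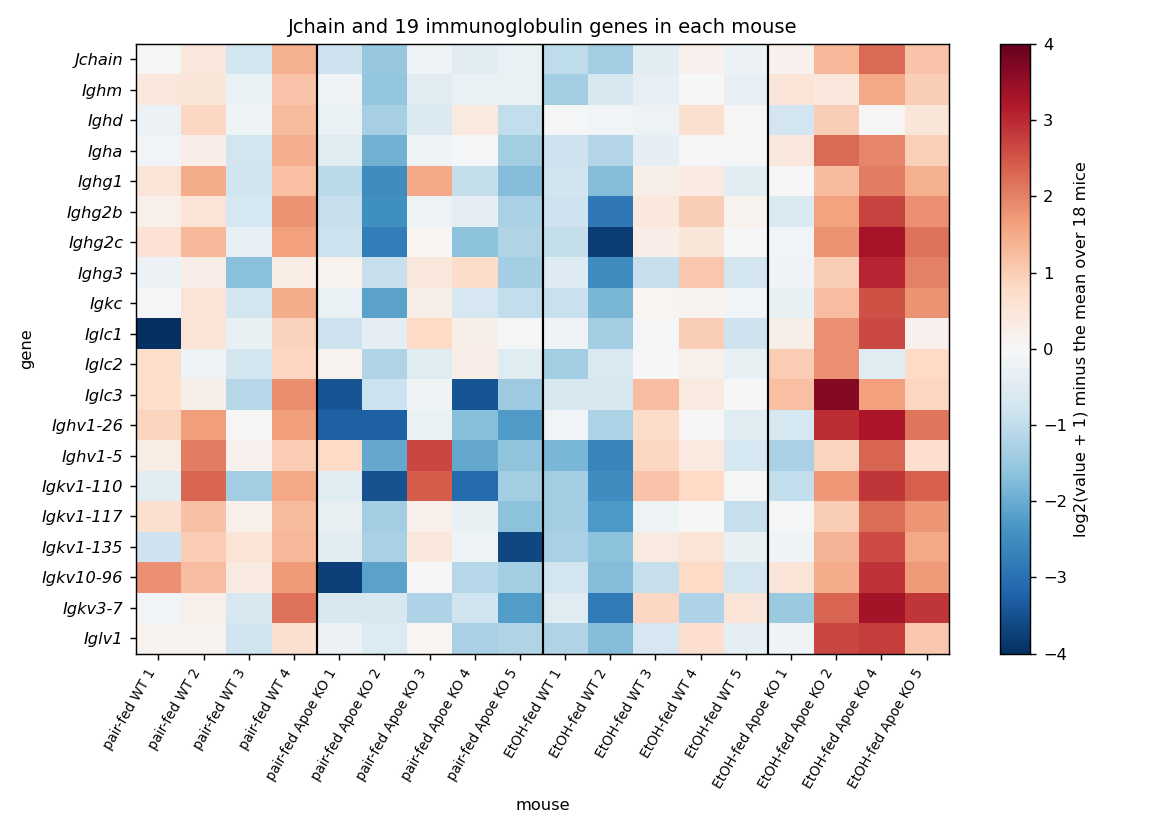
Log2(value + 1) of *Jchain* and 19 immunoglobulin genes (rows) in each of the 18 mice (columns, groups divided by lines), minus the mean of the gene over all mice; red is above and blue below. EtOH-fed *Apoe* KO mice 2, 4 and 5 are red in most rows, mouse 1 of that group is near the mean, and *Ighd* is the row that differs least between EtOH-fed genotypes.

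Of 22 further B cell genes, 18 were in the table. The median of the 18 between EtOH-fed genotypes was 0.41. Of the 18, 1 was called higher in *Apoe* KO than in WT mice fed EtOH, close to the 4.25% of all genes called higher. It was *Cd72*, a B cell surface receptor named here after its values were seen. *Igkc*, the kappa light chain, missed the threshold between EtOH-fed genotypes (1.83, adjusted p = 0.0527), was called in *Apoe* KO mice after EtOH (2.08, adjusted p = 0.01) and in the interaction (2.89, adjusted p = 0.0427). In EtOH-fed WT mice *Cd37*, a tetraspanin of B cells (-0.86, adjusted p = 0.0139), and *Vpreb3* (-1.63, adjusted p = 0.0187) were lower than in pair-fed WT mice. *Blnk*, an adaptor of the B cell receptor, was higher in EtOH-fed than in pair-fed *Apoe* KO mice (1.03, adjusted p = 0.0254), as was the light chain gene *Iglc3* (3.71, adjusted p = 0.00845). *Iglc3* may be in the table only through the EtOH-fed *Apoe* KO mice, so its call is partly set by that. No gene of this list passed between pair-fed genotypes (limma). Between diets in WT mice 2 of 18 were called lower, where 6.52% of all genes were. Between diets in *Apoe* KO mice 4 of 18 were called higher, *Cd72* among them, where 16.3% of all genes were. In the interaction 2 of 18 were called higher, where 2.60% of all genes were. Without EtOH-fed *Apoe* KO mouse 1, *Cd72* was not called between EtOH-fed genotypes (0.86, adjusted p = 0.0823) or between diets in *Apoe* KO mice (0.83, adjusted p = 0.0687), where *Blnk* was not called either (0.98, adjusted p = 0.0587). *Igkc* was then called between EtOH-fed genotypes (2.38, adjusted p = 0.0114).

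Among 27 further T cell genes, 14 were in the table. Of these, 1 was called higher between EtOH-fed genotypes, close to the 4.25% of all genes called higher. It was *Icos*, a co-stimulatory receptor of activated T cells (30.6 ± 4.56, SD, n = 5, in WT and 85.2 ± 25.1, SD, n = 4, in *Apoe* KO, with a log2 difference of 1.41 and adjusted p = 0.0158). It was lower in EtOH-fed than in pair-fed WT mice (-1.14, adjusted p = 0.0221), with *Themis*, a protein of T cell selection (-2.16, adjusted p = 0.0182), and *Thy1*, a surface protein of T cells and stromal cells (-0.93, adjusted p = 0.0477). These 3 of 14 stand beside 6.52% of all genes called lower. In *Apoe* KO mice *Thy1* (1.09, adjusted p = 0.0340) and *Cd4* (2.45, adjusted p = 0.0482) were higher after EtOH. With 16.3% of all genes called higher there, 2 of 14 is close to that share. *Icos* and *Thy1* passed in the interaction (1.92 and 2.02, adjusted p = 0.0221 and 0.0201), where 2.60% of all genes were called higher. The median of the 14 between EtOH-fed genotypes was 0.51, beside 0.107 over all genes. Without EtOH-fed *Apoe* KO mouse 1, *Cd4* (1.58, adjusted p = 0.031) and *Thy1* (1.18, adjusted p = 0.0472) were called there too, and *Cd4* in the interaction (3.62, adjusted p = 0.0404). The 3 T cell receptor genes found by annotation were called in none of the 5 comparisons (limma), with a median of -0.10 between EtOH-fed genotypes. Of these 3, only *Trbc2*, a constant region of the receptor's beta chain, was looked at without that mouse. It then passed between diets in *Apoe* KO mice (1.60, adjusted p = 0.0292) and in the interaction (2.49, adjusted p = 0.0289).

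Of 19 further NK and cytotoxic genes, 6 were in the table. Of these, 1 was called higher between EtOH-fed genotypes, where 4.25% of all genes were. *Klrk1*, the activating receptor NKG2D, averaged 39.8 ± 6.72 (SD, n = 5) in WT and 86.2 ± 27.0 (SD, n = 4) in *Apoe* KO mice when both were fed EtOH, and these groups did not overlap (log2 difference 1.07, adjusted p = 0.0488). It was lower in EtOH-fed than in pair-fed WT mice (-1.16, adjusted p = 0.0280), and its interaction was 1.62 (adjusted p = 0.0358). It was the 1 of 6 called in each, beside 6.52% of all genes called lower and 2.60% called higher. Without EtOH-fed *Apoe* KO mouse 1 the difference of *Klrk1* between EtOH-fed genotypes was 1.16 and not called (adjusted p = 0.0582), so that 0 of 6 were. The other 5 were called in no comparison with all mice (limma). Without that mouse the chemokine gene *Ccl5* passed between diets in *Apoe* KO mice (1.2, adjusted p = 0.0307) and in the interaction (1.93, adjusted p = 0.0337).

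Genes of other leukocytes moved in the same comparison. Of 9 genes shared by all leukocytes, 5 were called higher in *Apoe* KO than in WT mice fed EtOH, where 4.25% of all genes were. Among the 5 were *Laptm5*, a lysosomal protein (1.12, adjusted p = 0.00331), *Rac2*, a GTPase (1.13, adjusted p = 0.00947), and the tetraspanin *Cd53* (1.03, adjusted p = 0.00519). *Lcp1*, an actin-bundling protein (0.56, adjusted p = 0.00966), and *Cd52*, a surface glycoprotein (0.93, adjusted p = 0.0160), completed the 5. Their summed level over the 9 genes was 3804 to 4403 in WT and 5735 to 8155 in *Apoe* KO mice, both fed EtOH. Kupffer cell markers were called higher in 5 of 5 (sums 4297 to 8212 and 10705 to 20653), and monocyte and macrophage markers in 7 of 9 (2675 to 4550 and 6857 to 10710). Markers of erythroid cells and platelets, which come with blood, were called in 0 of 6 (limma), with sums of 3408 to 7019 and 4245 to 11090. All 6 were above 0 there, with a median log2 difference of 0.60 beside 0.107 over all genes. Between diets in *Apoe* KO mice 2 of these 6 were called higher (limma), where 16.3% of all genes were, with a median of 1.01. Without EtOH-fed *Apoe* KO mouse 1 that count was 0 of 6 and the median 0.75. With EtOH-fed *Apoe* KO mouse 1 left out, the counts between EtOH-fed genotypes were 5 of 9 for all leukocytes, 4 of 5 for Kupffer cells and 7 of 9 for monocytes and macrophages. *Laptm5* was also called between diets in *Apoe* KO mice (0.65, adjusted p = 0.0412), and not without that mouse (0.54, adjusted p = 0.112). The part of these cells, or of blood in the tissue, in the differences of *Ighm* and *Jchain* was not tested.

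Neutrophil markers (3 of 8 in the table) and dendritic cell markers (5 of 6) were called in none of the 5 comparisons (limma). Hepatocyte markers summed to 2414221 to 4083505 in WT and 2671484 to 3441405 in *Apoe* KO mice, both fed EtOH, and 0 of 6 were called between these groups. Endothelial markers were called in 0 of 6 there, stellate cell markers in 1 of 6 and cholangiocyte markers in 1 of 5, both higher, beside 4.25% of all genes called higher.

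Across the 18 mice, *Ighm* and *Jchain* followed each other with a Spearman rho of 0.87 on log2(value + 1). The 2 genes most like *Ighm* were *Myof* (rho 0.95) and *Emp1* (0.94), and those most like *Jchain* were *Pstpip1* (0.93) and *Cox17* (0.91). For *Nkg7* they were *Gimap3* (0.90) and *Cdh13* (0.87), for *Cd8a* *Rasal3* (0.89) and *Timp1* (0.86), for *Cd79a* *Podnl1* and *Olfml2b* (both 0.87), and for *Ms4a1* *Pilrb1* (0.84) and *Det1* (0.81). *Cd3e* was most like *Tmem50b* (0.86) and *Rftn2* (0.81), *Cd3g* most like *Ccnd2* (0.84) and *Zfp644* (0.82), and *Cd79b* most like *Tlcd2* (0.80) and *Ncmap* (0.79). *Gzma* was least matched, with *Pik3cg* at 0.75. *Cd79a* and *Cd79b*, which form 1 complex, had a rho of 0.68, and *Cd3e* and *Cd3g* 0.38. The mice fall into 4 groups and differ in depth, so these values describe the set and carry no test.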

How the data were processed

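Livers of 18 mice were profiled by bulk RNA-seq of TRIzol-extracted RNA. Per the submitters' processing notes, FastQC, Trimmomatic, HISAT2, SAMtools, featureCounts, DESeq2 and the GRCm38 build were used, with versions not given in the sources used here. The deposited values are a signal: gene read counts scaled by the authors to a nearly common total (32267493 to 32292618 per mouse) and rounded. The authors' columns of means, fold changes, errors, statistics, p-values, expression flags and ranks were not used, and 0 columns of per-mouse values were left out.

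The 15247 rows gave 15052 genes, since 56 genes stood on more than 1 row with identical values. Positions and exon lengths came from GENCODE M21. Each comparison was fitted on log2(value + 1) with limma 3.58.1 (trend, R 4.3.3) on the groups compared, and the interaction on all 4 groups, so that fold changes of low genes are understated. All tests are two-sided, and p-values were adjusted over 15052 genes. They set each difference against the spread between mice, which for low genes also holds the sampling of few reads. Reads per mouse were estimated from the spacing of low values in Python 3.11.15 (numpy 2.4.6, pandas 2.3.3). In 2 EtOH-fed WT mice no spacing was resolved, and voom took 1 unit as 1 read there. With changes put into simulated data for the EtOH-fed genotypes (15052 genes), 41 of 100 changes of log2 size 1 and 98 of 100 of size 2 were called, with 11 false calls. The simulation gave all genes the same dispersion and drew the changed genes from all 15052. It therefore does not give the sensitivity for the members, most of which are low and vary widely between mice.

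Named genes are the 10 members, up to 5 called genes of each further lymphocyte and leukocyte list, and the 2 genes most alike by Spearman rho. Other lists are given by counts and sums. The members and lists were chosen with earlier results of these data known. Alternatives were pseudocounts of 0.1 and 10, a mean of at least 50, median-of-ratios factors, sample weights, voom, all groups in 1 fit, the mouse number as a block, and leaving out each mouse. Figures were drawn with matplotlib 3.10.9.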

Additional observations from a re-analysis of the deposited data

Results flagged for a closer look

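In groups of 4 or 5 mice, 40 sets of member values were searched for a mouse far from the rest of its group (Dixon's ratio of gap to range), and 2 were found, the number that chance gives. They were *Ighm* in pair-fed *Apoe* KO mouse 2, at 120 against 259 to 315 in the other 4 (ratio 0.797), and *Gzma* in pair-fed *Apoe* KO mouse 4, at 41 against 19 to 23 (ratio 0.754).

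The effect of EtOH differed between *Apoe* KO and WT mice for *Ighm*, with an interaction of 2.40 on the log2 scale, and for *Jchain*, with 2.74, both by limma's interaction term.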

How the results depend on the processing

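No value that was called changed its direction under any alternative run. Limiting the test to genes with a mean of at least 50 left 4 members, whose median log2 difference was 0.98 between EtOH-fed genotypes and 2.13 in the interaction. With voom, 0 members were called between EtOH-fed and pair-fed WT mice and 1 in the interaction. With sample quality weights, 456 genes were called between pair-fed genotypes, beside 261. Leaving out 1 mouse at a time gave 1 to 2 called members between EtOH-fed genotypes (327 to 620 genes in all), 0 to 1 between pair-fed genotypes (73 to 670), 0 to 1 between diets in WT (1186 to 1904), 2 to 3 between diets in *Apoe* KO (2637 to 3320) and 2 to 3 in the interaction (167 to 561). The cause of these changes was not tested. *Cd79a* passed between diets in *Apoe* KO mice with all 4 groups in the fit (adjusted p = 0.0385) and without pair-fed *Apoe* KO mouse 3 (adjusted p = 0.0473), and in the interaction without pair-fed *Apoe* KO mouse 4 (2.06, adjusted p = 0.0464).

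Mouse numbers recur in the groups, but nothing in the labels ties equal numbers together, so the numbers were not taken as pairs. The deviations of same-numbered EtOH-fed mice correlated at 0.1884, -0.0242, 0.2298 and 0.1441 (mice 1, 2, 4 and 5). Those of EtOH-fed mice with unlike numbers correlated at -0.1563 to 0.1378. Whether mice of equal number have anything in common was not tested. With the replicate block, 1083 genes were called between EtOH-fed genotypes, beside 706, and 392 between pair-fed genotypes, beside 261. *Ighm* (1.46, adjusted p = 0.000949) and *Jchain* (1.85, adjusted p = 0.00216) were called between EtOH-fed genotypes with the block, and *Cd79a* between diets in *Apoe* KO mice (1.34, adjusted p = 0.0313) and in the interaction (2.52, adjusted p = 0.0277).

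Depth limits the 8 low genes most: 3 of their 128 resolved values rest on 3 reads or fewer, and the estimate counts reads, not molecules.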
